A study of Rattus norvegicus with 10 samples.

Results

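Neurotrophins are small secreted growth factors that act on neurons through 2 kinds of receptor, and 8 rat genes of this system were followed here: the ligands Bdnf, Ntf3 and Ntf4, the Trk receptors Ntrk2 and Ntrk3, the p75 receptor Ngfr, the sorting receptor Sort1 and the secretory peptide gene Vgf. The genes were taken by name from a table of read counts for 32545 genes. Of the 8, 7 were analysed here and Vgf was not, and 6 of the 7 carried enough reads to be tested, Ntf4 being the exception. The 10 RNA-seq libraries came from the microdissected CA1 region of acute hippocampal slices from male Wistar rats of 5 to 7 weeks, in 5 groups of 2 libraries. The SKF group received SKF alone, an agonist of D1-type dopamine receptors. The SKF+Aβ group received SKF with 200 nM oligomers of the amyloid-beta 1-42 peptide. The SKF+Aβ+CSP group received in addition the glucose-derived carbon nanosphere CSP, the carrier without cargo, and the SKF+Aβ+CSP-TTK21 group received the nanosphere carrying TTK21, a small molecule that raises the acetyltransferase activity of CBP and p300. The CSP-TTK21 group received the loaded nanosphere with neither SKF nor Aβ. Particles were given at 0.36 µg/ml, the slices had 30 min of basal stimulation, and tissue was collected 1 h after treatment. Each repeat pooled 2 slices from 2 biological samples, so that a library is not a single animal. A group of untreated slices was not analysed here, and CSP-TTK21 therefore differed from SKF by the absence of SKF as well as by the loaded particle.

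In the adult hippocampus BDNF, the product of Bdnf, is made mainly by excitatory neurons, and its transcription is raised by neuronal activity through calcium, CREB and related factors. BDNF and neurotrophin 4 signal through TrkB (Ntrk2), and neurotrophin 3 through TrkC (Ntrk3). The unprocessed precursors bind p75 (Ngfr) together with sortilin (Sort1), which also carries proBDNF inside the cell, and TrkB signalling is known for its part in the late phase of long-term potentiation at CA1 synapses.

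Total counts ranged from 6753742 to 8473407 per library. Levels are given as normalized CPM, the read counts scaled to a common library total by the trimmed mean of M values, and 3 counts equalled 0.354 to 0.444 CPM. No group held the same library in duplicate: the chi-square statistic of its 2 libraries over the degrees of freedom was lowest for SKF+Aβ+CSP (4.73) and highest for SKF (12.1). SKF replicate 1 had the largest median distance to the other libraries, at 0.573 on the log2 scale against 0.445 for the closest. Among markers of CA1 pyramidal neurons, Wfs1 was at 98.1 to 372 CPM and Mpped1 at 147 to 216 CPM over the libraries, Fibcd1 was at 0 in all 10 libraries and Pou3f1 was not analysed here. The summed markers of dentate granule cells were at 305 to 417 CPM, those of CA3 at 234 to 337 CPM and those of oligodendrocytes at 9685 to 22240 CPM, with 4 of 4 genes of each list detected in at least 1 library and the CA3 marker Iyd at 0 in others. In such bulk tissue, fewer cells of a type and less RNA per cell cannot be told apart. The p-values below measure the spread between these libraries only.

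The Bdnf gene starts at several promoters, and these are shown because the reads were summed over the whole gene, so the values below cannot be assigned to any one of them. RefSeq lists 6 start sites of rat Bdnf on the plus strand of chromosome 3 in the GRCr8 assembly. Among the 250 bases before each start, the core of the cAMP response element, TGACG on either strand, was found at 1 of the 6, the fourth from the 5′ end. The full palindrome TGACGTCA was found at 0 of the 6. Among 33469 promoter windows of the same length, 18.2% held TGACG and 1.59% held TGACGTCA, which contains the shorter motif. The 5′-most window and the fourth are printed 5′ to 3′, with the matched letters (CGTCA, the reverse complement of TGACG) in capitals.
Bdnf start site 1, chr3:116619383-116619632: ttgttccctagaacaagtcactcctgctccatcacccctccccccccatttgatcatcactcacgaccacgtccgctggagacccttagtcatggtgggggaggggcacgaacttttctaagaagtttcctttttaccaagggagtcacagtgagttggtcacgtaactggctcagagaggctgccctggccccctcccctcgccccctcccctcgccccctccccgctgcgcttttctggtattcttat
Bdnf start site 4, chr3:116637608-116637857: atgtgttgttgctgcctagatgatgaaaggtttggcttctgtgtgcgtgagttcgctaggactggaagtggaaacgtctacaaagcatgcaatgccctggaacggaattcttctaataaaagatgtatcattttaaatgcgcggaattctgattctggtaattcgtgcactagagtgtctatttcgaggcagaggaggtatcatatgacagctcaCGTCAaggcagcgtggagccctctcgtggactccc
The 3 start sites of Ntf3, the 1 of Ntf4 and the 1 of Sort1 had no match to TGACG in their windows. The 1 window of Vgf, whose reads were not analysed here, held TGACG and also TGACGTCA. A match describes letters in a window and is not a binding site.

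Bdnf (ENSRNOG00000047466) differed between the 2 libraries of a group by 1.21-fold in SKF+Aβ+CSP-TTK21 to 1.85-fold in SKF. Its level was 158 and 85.3 CPM for SKF libraries, 94.3 and 155 for SKF+Aβ, and 85.2 and 144 for SKF+Aβ+CSP. It was 87.2 and 105 CPM for SKF+Aβ+CSP-TTK21 and 90.6 and 52.1 for CSP-TTK21. SKF, SKF+Aβ and SKF+Aβ+CSP each held 1 library between 85.2 and 94.3 CPM and 1 between 144 and 158, so that their ranges overlapped almost fully. The lowest library was CSP-TTK21 replicate 2, and the highest library stood 3.03-fold above it. The mean was 122 ± 51.5 CPM for SKF, 124 ± 42.6 for SKF+Aβ, 114 ± 41.3 for SKF+Aβ+CSP, 96.2 ± 12.8 for SKF+Aβ+CSP-TTK21 and 71.4 ± 27.2 for CSP-TTK21 (SD, n = 2 each). These levels rested on 390 to 1144 reads per library.

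Ntf3 (ENSRNOG00000019716), which encodes neurotrophin 3, was detected in every library on 20 to 51 reads. Its level was 2.76 and 3.87 CPM for SKF, 5.45 and 5.66 for SKF+Aβ, and 2.95 and 4.40 for SKF+Aβ+CSP. It was 6.52 and 6.27 CPM for SKF+Aβ+CSP-TTK21 and 3.24 and 6.02 for CSP-TTK21. Both libraries of SKF+Aβ and both of SKF+Aβ+CSP-TTK21 were above all 4 libraries of SKF and SKF+Aβ+CSP, and the CSP-TTK21 pair spanned both ranges. Ntf4 (ENSRNOG00000020783), the gene of neurotrophin 4, had 2 and 0 reads for SKF, 2 and 1 for SKF+Aβ, 3 and 0 for SKF+Aβ+CSP, 0 and 0 for SKF+Aβ+CSP-TTK21, and 0 and 1 for CSP-TTK21. At no more than 3 reads, a difference in Ntf4 was not detectable at this depth.

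Among the receptors, Ntrk2 (ENSRNOG00000018839) encodes TrkB, the receptor of BDNF. Its level was 663 and 818 CPM for SKF, 648 and 778 for SKF+Aβ, 717 and 714 for SKF+Aβ+CSP, 768 and 879 for SKF+Aβ+CSP-TTK21, and 714 and 882 for CSP-TTK21. All 10 libraries lay within a 1.36-fold range on 4640 to 6595 reads. Ntrk3 (ENSRNOG00000018674), the gene of TrkC, was at 141 and 127 CPM for SKF and at 203 and 165 for SKF+Aβ. It was at 151 and 173 CPM for SKF+Aβ+CSP, 148 and 145 for SKF+Aβ+CSP-TTK21, and 158 and 141 for CSP-TTK21. The SKF pair was the lowest in mean and SKF+Aβ replicate 1 the single highest library, and neither SKF library reached the SKF+Aβ pair. Ntrk3 levels rested on 950 to 1455 reads and spanned 1.60-fold.

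Ngfr (ENSRNOG00000005392) encodes p75, which binds all neurotrophins and their precursors. Its level was 3.04 and 0.801 CPM for SKF, 1.40 and 1.49 for SKF+Aβ, 2.24 and 1.76 for SKF+Aβ+CSP, 1.28 and 1.71 for SKF+Aβ+CSP-TTK21, and 2.95 and 0.936 for CSP-TTK21. With 6 to 22 reads per library, the SKF and CSP-TTK21 pairs each held both a high and a low library. Sort1 (ENSRNOG00000031814), the gene of sortilin, was at 760.5 and 918 CPM for SKF, 816 and 887 for SKF+Aβ, and 822 and 811 for SKF+Aβ+CSP. It was at 1048 and 895 CPM for SKF+Aβ+CSP-TTK21 and 831 and 821 for CSP-TTK21. Sort1 spanned 1.38-fold, and SKF+Aβ+CSP-TTK21 replicate 1 was the highest library.

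**Figure D1:**
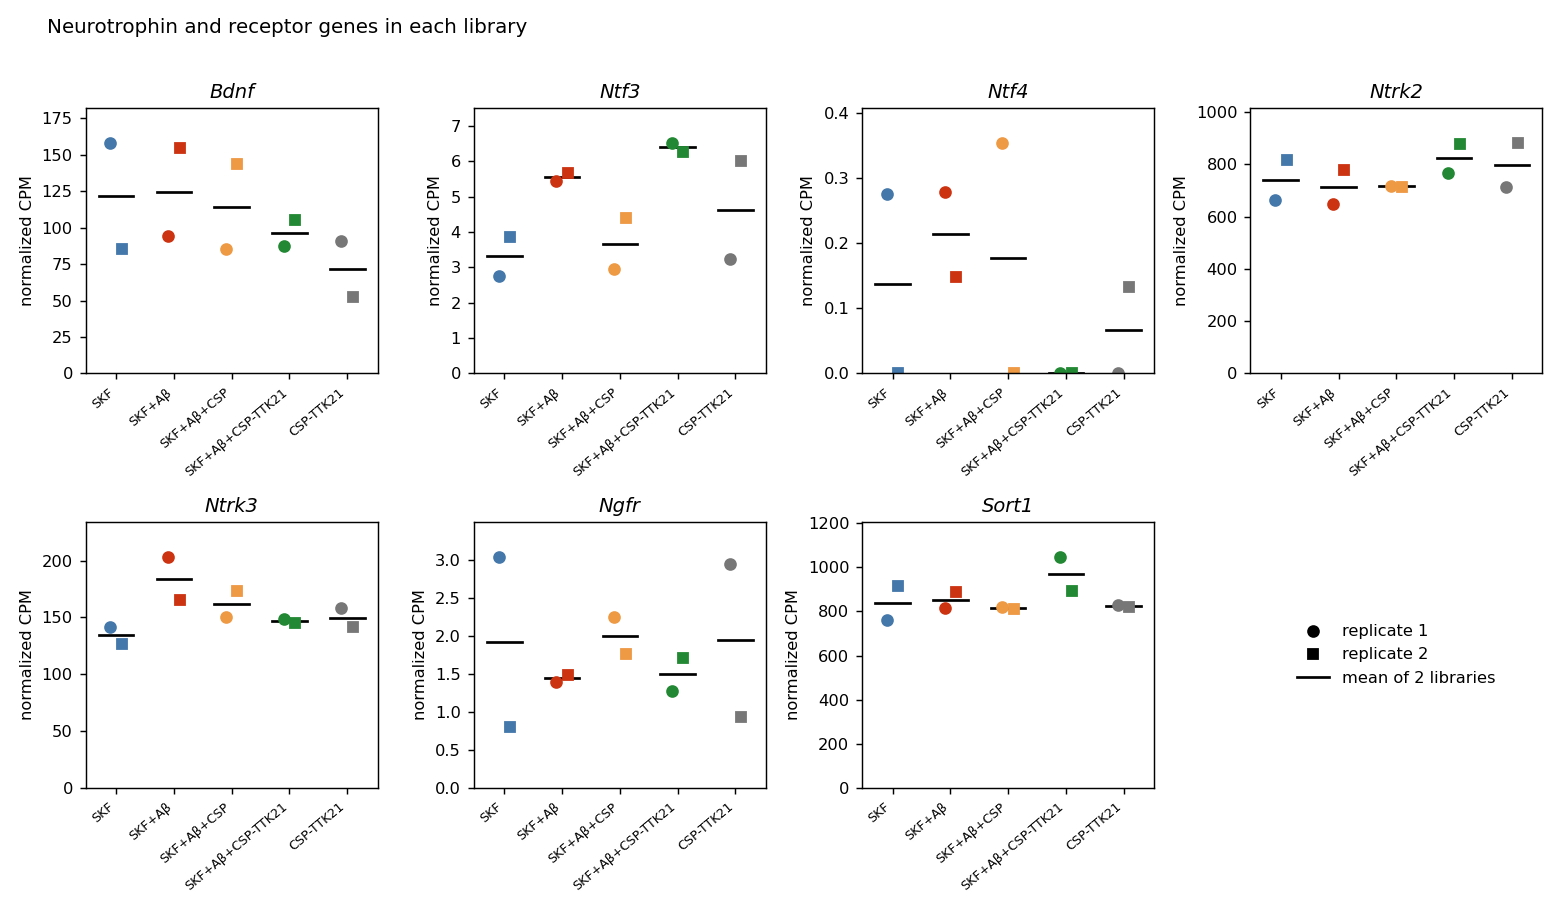
Normalized CPM (y axis, linear, from 0) of the 7 genes analysed in each of the 10 libraries, by group (x axis); circles are replicate 1, squares replicate 2 and bars the mean of 2 libraries. The Bdnf libraries lie far apart within SKF (85.3 and 158 CPM) and close together within SKF+Aβ+CSP-TTK21 (87.2 and 105 CPM), while both SKF libraries of Ntrk3 (127 and 141 CPM) lie below both SKF+Aβ libraries (165 and 203 CPM).

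The order of the 5 group means differed from gene to gene. SKF+Aβ+CSP-TTK21 was the highest group for Ntf3 (6.40 ± 0.174 CPM), Ntrk2 (823 ± 78.9) and Sort1 (972 ± 108), SKF+Aβ for Bdnf and Ntrk3 (184 ± 26.8) (SD, n = 2 each), and SKF+Aβ+CSP for Ngfr. SKF was the lowest group for Ntf3 (3.32 ± 0.783 CPM) and Ntrk3 (134 ± 10.3). For most neighbours in these orders the gap was within the spread: in 20 of 24 neighbouring pairs over the 6 tested genes, the gap between means was no larger than the larger of the 2 SDs. Libraries of neighbouring groups did not overlap in 3 of the 24 pairs, beside 18.1% of such pairs over all tested genes. The 3 were SKF+Aβ+CSP-TTK21 above SKF+Aβ for Ntf3 and for Sort1, and SKF+Aβ+CSP-TTK21 above SKF for Ntrk3.

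With 8 comparisons and 6 genes, 48 differences were tested. Of these, 0 passed an adjusted p of 0.05 in the quasi-likelihood test of edgeR, adjusted by Benjamini-Hochberg over 15032 genes, and 5 had an unadjusted p under 0.05. The lowest adjusted p of any of the 6 genes was 0.0862. When any difference among the 5 groups was tested, 0 of the 6 genes had an unadjusted p under 0.05, against 14.3% of all genes tested, and 0.00665% of all genes passed adjustment. In that test the lowest value was that of Ntrk3, with an unadjusted p of 0.0527 and an adjusted p of 0.353 in edgeR's test.

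Against SKF, the share of all tested genes that passed adjustment was 2.08% for SKF+Aβ, 0.0200% for SKF+Aβ+CSP, 0.00665% for SKF+Aβ+CSP-TTK21 and 0% for CSP-TTK21. At an unadjusted p under 0.05 these shares were 22.8%, 19.3%, 19.6% and 7.78%, and the 6 genes contributed 1, 0, 1 and 1 in the same order. The share passing adjustment was 0% in each of the remaining comparisons. At an unadjusted p under 0.05 it was 2.18% for SKF+Aβ+CSP against SKF+Aβ (0 of the 6 genes) and 6.59% for SKF+Aβ+CSP-TTK21 against SKF+Aβ (1 of 6). It was 8.78% for SKF+Aβ+CSP-TTK21 against SKF+Aβ+CSP (1 of 6) and 4.18% for SKF+Aβ+CSP-TTK21 against CSP-TTK21 (0 of 6). A count of 0 or 1 among 6 genes is too coarse to be read against these shares.

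The difference with the lowest p was that of the TrkC gene. Ntrk3 was at 184 ± 26.8 CPM in SKF+Aβ against 134 ± 10.3 in SKF (SD, n = 2), and the libraries did not overlap, as for 49.6% of all tested genes in this comparison. The log2 fold change was 0.46 ± 0.14 (SE), or 1.37-fold. Its unadjusted p was 0.00573 and its adjusted p 0.0862 by edgeR's quasi-likelihood test, and the difference did not pass. DESeq2 gave it 0.46 with an adjusted p of 0.0428 and called 822 genes in all in this comparison, against 312 for edgeR. Without SKF+Aβ replicate 1 the log2 fold change was 0.29, and without SKF+Aβ replicate 2 it was 0.58. In SKF+Aβ+CSP-TTK21 Ntrk3 was at 147 ± 2.43 CPM, a log2 fold change of -0.33 ± 0.14 (SE) against SKF+Aβ, with an unadjusted p of 0.0334 and an adjusted p of 0.746 in edgeR's test. Both differences use the same SKF+Aβ libraries, and without SKF+Aβ replicate 1 the second was -0.17. Over the 10 libraries Ntrk3 had a Pearson r of -0.70 with the summed excitatory neuron markers, of which 3 of 3 were detected. These summed 3176 to 3754 CPM in SKF, 2754 to 3134 in SKF+Aβ and 3201 to 3455 in SKF+Aβ+CSP-TTK21. Its r was -0.644 with microglia markers and 0.491 with dentate granule markers. Besides the excitatory neuron markers, 4 other lists did not overlap between SKF+Aβ and SKF. Oligodendrocyte markers summed 9685 to 13840 CPM against 14180 to 21410, dentate granule markers 402 to 404 against 305 to 351, interneuron markers 359 to 507 against 349 to 356, and meningeal markers (3 of 4 detected, Col1a2 at 0) 15.2 to 27.9 against 9.54 to 12.7. The part of these cells in the Ntrk3 values was not tested.

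Neurotrophin 3 gave the largest of the 5 differences in size. Ntf3 was at 6.40 ± 0.174 CPM in SKF+Aβ+CSP-TTK21 against 3.32 ± 0.783 in SKF, a log2 fold change of 0.94 ± 0.36 (SE), with an unadjusted p of 0.0214 and an adjusted p of 0.186 in edgeR's test. Against SKF+Aβ+CSP, the carrier without TTK21, at 3.68 ± 1.02 CPM, the log2 fold change was 0.81 ± 0.36 (SE), with an unadjusted p of 0.0404 and an adjusted p of 0.564 in edgeR's test. Against SKF+Aβ, with no particle, the log2 fold change was 0.20 (95% interval -0.54 to 0.95), and SKF+Aβ itself stood 0.74 above SKF (-0.05 to 1.53). In the comparisons with SKF and with SKF+Aβ+CSP, the libraries did not overlap, as for 50.5% and 46.3% of all tested genes. Both comparisons shared the SKF+Aβ+CSP-TTK21 libraries, and neither difference passed. The difference against SKF was 0.71 without SKF replicate 1 and 1.21 without SKF replicate 2. That against SKF+Aβ+CSP was 0.54 without SKF+Aβ+CSP replicate 1 and 1.11 without SKF+Aβ+CSP replicate 2. Ntf3 covaried over the libraries with markers of other cells, with an r of 0.774 for dentate granule cells, 0.760 for interneurons and -0.735 for endothelial cells. Dentate granule markers (4 of 4 detected) summed 385 to 417 CPM in SKF+Aβ+CSP-TTK21, 355 to 384 in SKF+Aβ+CSP and 305 to 351 in SKF. Interneuron markers (4 of 4) summed 451 to 456, 357 to 401.5 and 349 to 356 CPM in the same order. Endothelial markers (2 of 4 detected, Cldn5 at 0 in all libraries and Pecam1 not analysed here) summed 42.3 to 45.0, 72.1 to 95.3 and 53.5 to 84.3 CPM. Other lists were also higher in SKF+Aβ+CSP-TTK21 without overlap. Against SKF+Aβ+CSP these were excitatory neuron (3201 to 3455 against 2579 to 2937 CPM), astrocyte (2631 to 2827 against 2189 to 2217), CA3 (292.5 to 298 against 260 to 283) and microglia markers (85.3 to 120 against 69.0 to 77.9). Against SKF these were meningeal markers (12.8 to 21.2 against 9.54 to 12.7 CPM). The part of all these cells in the Ntf3 values was not tested.

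Bdnf was at 71.4 ± 27.2 CPM in CSP-TTK21 against 122 ± 51.5 in SKF, a log2 fold change of -0.77 ± 0.33 (SE), with an unadjusted p of 0.0364 and an adjusted p of 0.633 in edgeR's test. The libraries overlapped, since CSP-TTK21 replicate 1 at 90.6 CPM was above SKF replicate 2 at 85.3. The value was -0.26 without SKF replicate 1 and -1.24 without CSP-TTK21 replicate 1. Without a filter on low counts it was -0.79 with an adjusted p of 8.34e-04 in edgeR's test, and that fit called 157 genes in all in this comparison against 0 with the filter. Astrocyte markers (4 of 4 detected) summed 2156 to 2988 CPM in CSP-TTK21 and 2105 to 2867 in SKF and had an r of -0.748 with Bdnf over the 10 libraries. Their ranges overlapped. Oligodendrocyte, CA3, interneuron and meningeal markers did not overlap between these groups, as given below with the activity-induced genes. The part of these cells in the Bdnf values was not tested. In SKF+Aβ the log2 fold change of Bdnf against SKF was 0.03, with a 95% interval from -0.67 to 0.73.

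The intervals give the precision of each difference without adjustment over all genes. A difference beyond its half-width need not pass adjustment, as for Ntrk3 in SKF+Aβ against SKF (0.46). The widest 95% half-width over the 8 comparisons was 0.29 for Sort1, 0.30 for Ntrk3 and 0.33 for Ntrk2 on the log2 scale, or 1.22-fold, 1.23-fold and 1.26-fold. It was 0.72 for Bdnf (1.64-fold), 0.82 for Ntf3 (1.76-fold) and 1.44 for Ngfr (2.72-fold). For the TrkB gene Ntrk2, the log2 fold change of SKF+Aβ against SKF was -0.05 with a 95% interval from -0.38 to 0.27.

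**Figure D2:**
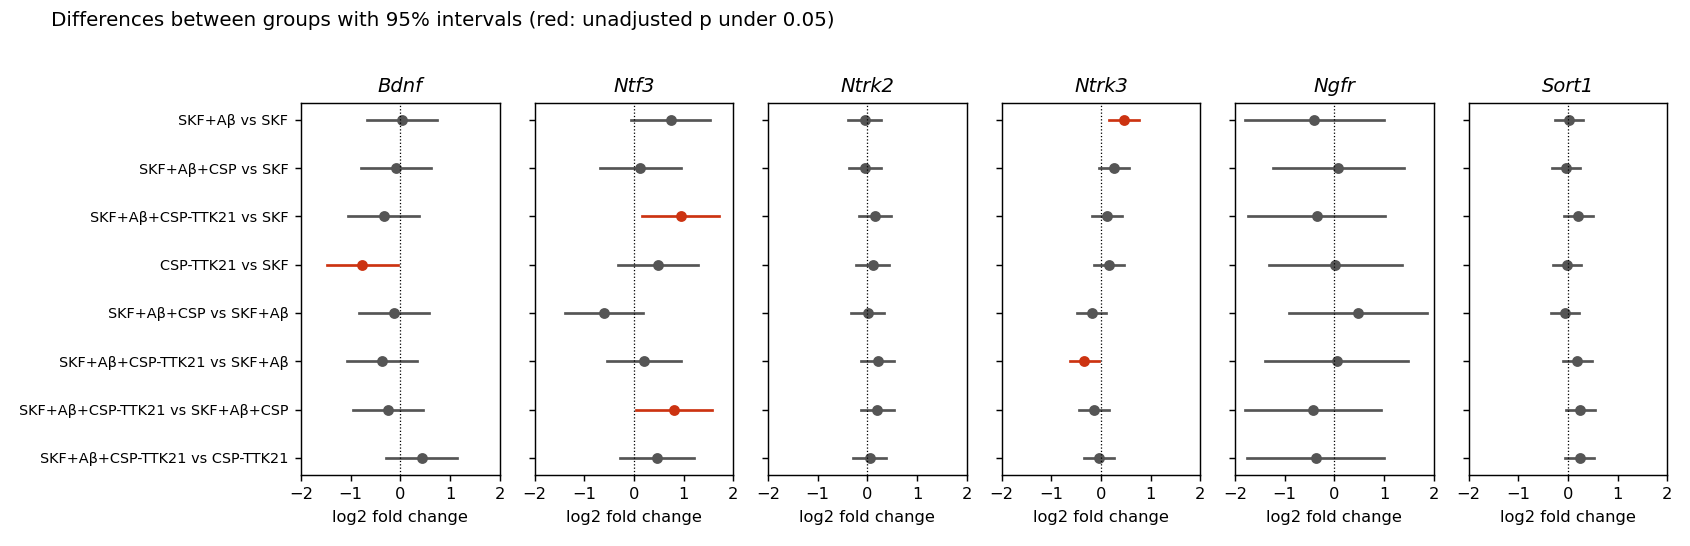
Log2 fold changes (x axis) of the 6 tested genes in 8 comparisons between groups (y axis, first group against second), with 95% intervals from the fit of all 10 libraries; red marks the 5 with an unadjusted p under 0.05. Intervals are narrow for Ntrk2, Ntrk3 and Sort1 and widest for Ngfr, and none of the 48 passed adjustment.

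Genes around the receptors were counted from 4 lists. Of 13 genes that process or release neurotrophins, 1 passed adjustment in any of the 8 comparisons, in SKF+Aβ against SKF, where 2.08% of all tested genes did. It was Pcsk1, which encodes a prohormone convertase of the regulated secretory pathway. Pcsk1 was at 26.0 and 26.2 CPM for SKF, 46.2 and 40.1 for SKF+Aβ, 32.6 and 41.3 for SKF+Aβ+CSP, 41.4 and 34.5 for SKF+Aβ+CSP-TTK21, and 32.5 and 31.1 for CSP-TTK21. Both SKF libraries were below the other 8, and the share of all tested genes with this pattern was not counted. Pcsk1 rose in SKF+Aβ, from a mean of 26.1 to 43.2 CPM, a log2 fold change of 0.73 ± 0.17 (SE) with an adjusted p of 0.0450 in edgeR's quasi-likelihood test. Here 5 marker lists did not overlap between these groups, as given with Ntrk3, and the part of those cells in the Pcsk1 values was not tested. The call held in 1 of 10 fits that left out 1 library, with log2 fold changes from 0.60 without SKF+Aβ replicate 1 to 0.81 without SKF+Aβ replicate 2. Across 17 alternatives, chosen after the values were seen, the adjusted p ranged from 0.0128 to 0.201. The log2 fold change against SKF was 0.50 in SKF+Aβ+CSP (adjusted p = 0.146 in edgeR's test) and 0.54 in SKF+Aβ+CSP-TTK21 (adjusted p = 0.134). The median log2 fold change of the 13 genes in SKF+Aβ against SKF was -0.08, beside -0.00 for all genes tested.

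Of 16 genes that carry the Trk signal inside the cell, 0 passed adjustment in any comparison. In SKF+Aβ against SKF, 6 of the 16 had an unadjusted p under 0.05, beside 22.8% of all genes. All 6 were lower, and the median of the list was -0.17 beside -0.00 for all genes. Against SKF the number was 3 for SKF+Aβ+CSP, 3 for SKF+Aβ+CSP-TTK21 and 1 for CSP-TTK21, all lower, beside 19.3%, 19.6% and 7.78% of all genes. These comparisons and that of SKF+Aβ use the same SKF libraries, so they are not separate observations. The part of the cells whose markers separate SKF+Aβ from SKF (excitatory neuron, oligodendrocyte, dentate granule, interneuron and meningeal) was not tested here either. The adaptor gene Shc1 was at 20.3 and 18.2 CPM for SKF, 12.4 and 11.5 for SKF+Aβ, 16.5 and 18.5 for SKF+Aβ+CSP, 11.2 and 12.8 for SKF+Aβ+CSP-TTK21, and 18.0 and 12.8 for CSP-TTK21. Its log2 fold change in SKF+Aβ against SKF was -0.68 (adjusted p = 0.0845 in edgeR's test). The adaptor gene Sh2b1 was at 68.6 and 63.1 CPM for SKF against 48.0 and 47.0 for SKF+Aβ, a log2 fold change of -0.47 (adjusted p = 0.0841), and at 49.1 to 62.9 CPM in the other 6 libraries.

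Of 11 genes whose products partner p75, 0 passed adjustment. The number at an unadjusted p under 0.05 was 3 for SKF+Aβ and 5 for SKF+Aβ+CSP against SKF, all lower, beside 22.8% and 19.3% of all genes. For SKF+Aβ+CSP-TTK21 against SKF it was 1 higher and 1 lower, beside 19.6%, and for CSP-TTK21 against SKF it was 0. The SKF libraries are shared by these comparisons as well. Excitatory neuron markers summed 2579 to 2937 CPM in SKF+Aβ+CSP against 3176 to 3754 in SKF, and microglia markers 69.0 to 77.9 against 78.0 to 127.5. Higher in SKF+Aβ+CSP were dentate granule markers, at 355 to 384 against 305 to 351 CPM, and interneuron markers, at 357 to 401.5 against 349 to 356. The part of these cells was not tested. Arhgdia, a GDP-dissociation inhibitor that binds p75, was at 227 and 242 CPM for SKF, 156 and 186 for SKF+Aβ, 179 and 168 for SKF+Aβ+CSP, 189 and 228 for SKF+Aβ+CSP-TTK21, and 201 and 200 for CSP-TTK21. Lingo1, a co-receptor of p75 at the axon, was at 166 and 133 CPM for SKF and at 103 to 132 CPM in the other 8 libraries. For both genes the SKF+Aβ and SKF libraries did not overlap, as for 49.6% of all tested genes, with log2 fold changes of -0.46 (adjusted p = 0.0817 in edgeR's test) and -0.47 (adjusted p = 0.0924).

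Of 13 transcription factors and regulators that act at the Bdnf gene, 0 passed adjustment. Mef2d, an activity-regulated factor of neurons, was at 112 and 117 CPM for SKF and between 85.8 and 109 in the other 8 libraries. Its relative Mef2c was at 120 and 148 CPM for SKF and between 154 and 203 in the other 8. In SKF+Aβ against SKF their log2 fold changes were -0.38 (adjusted p = 0.104 in edgeR's test) and 0.42 (adjusted p = 0.121). The median of the 13 genes in that comparison was -0.19, and 2 were higher and 3 lower at an unadjusted p under 0.05, beside 22.8% of all genes in either direction.

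**Figure D3:**
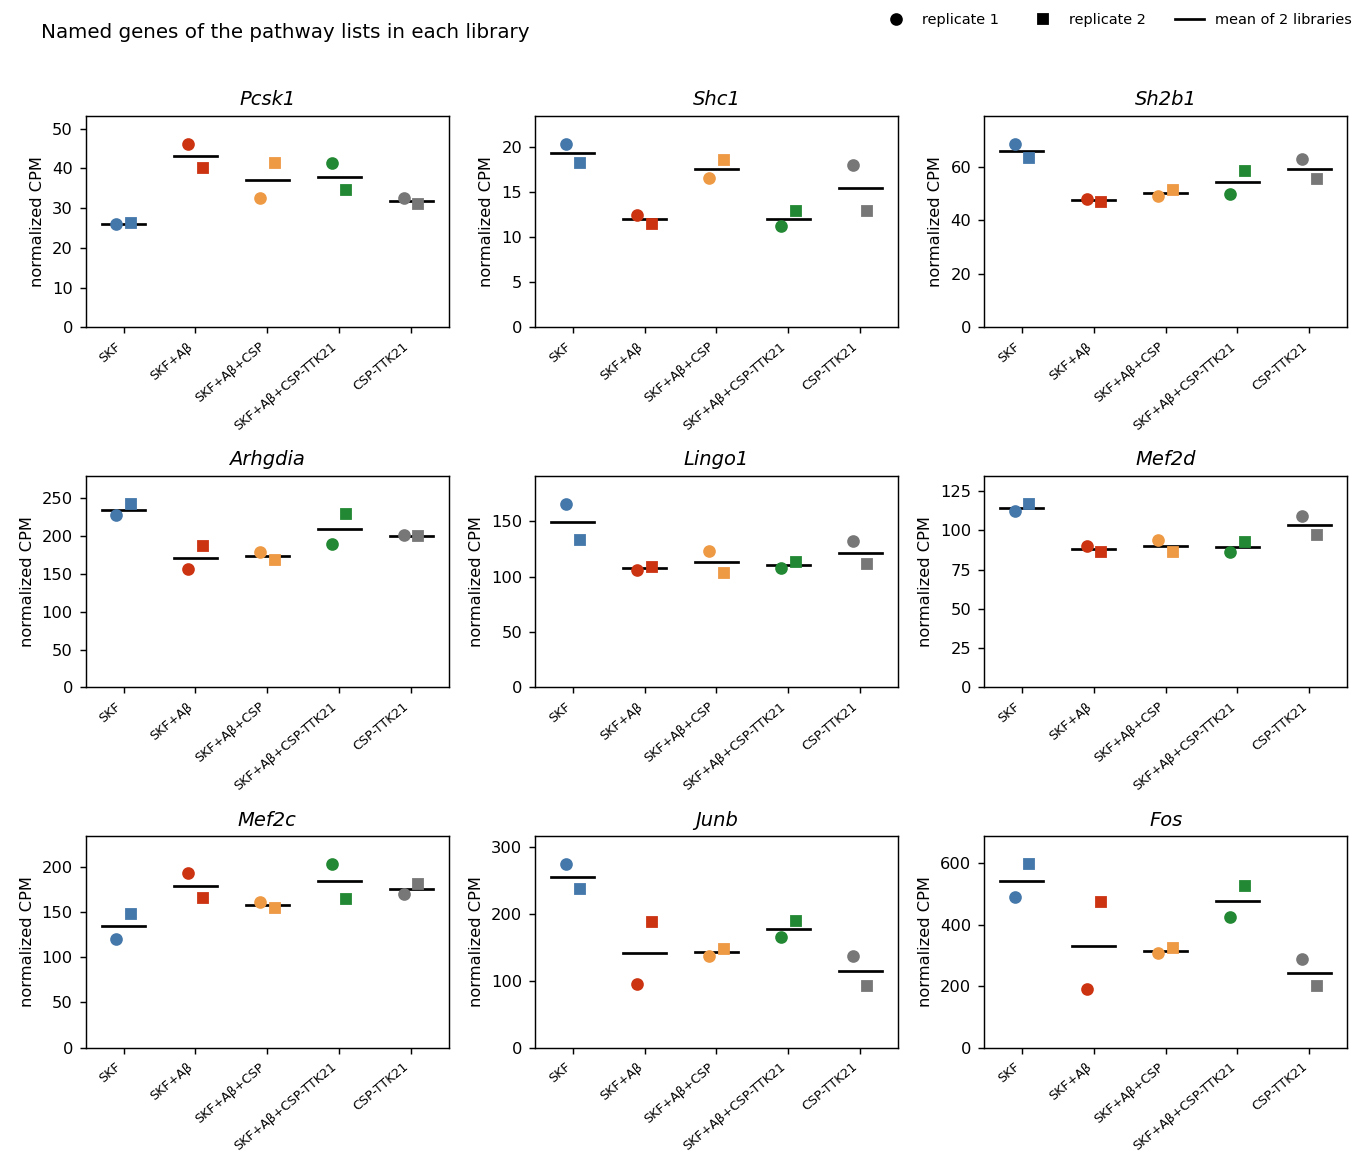
Normalized CPM (y axis, linear, from 0) of 9 genes named from the pathway lists and the activity list in the 10 libraries, by group (x axis); circles are replicate 1, squares replicate 2 and bars the mean of 2 libraries. The SKF libraries are the lowest for Pcsk1 (26.0 and 26.2 CPM) and Mef2c and the highest for Mef2d (112 and 117 CPM), Lingo1 (133 and 166 CPM), Sh2b1 and Junb. The genes were named for a call or a low p, which favours such separation, and its share over all genes was not counted.

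Because Bdnf is itself an activity-induced gene, its level was set beside 15 other genes that neuronal activity induces. Of these, 0 passed adjustment in any comparison. In CSP-TTK21 against SKF, 11 of 15 had an unadjusted p under 0.05, beside 7.78% of all genes. All 11 were lower, and the median log2 fold change was -0.97 beside 0.00 for all genes. The number was 7, all lower, for SKF+Aβ+CSP against SKF (19.3% of all genes) and 6, all higher, for SKF+Aβ+CSP-TTK21 against CSP-TTK21 (4.18%). For SKF+Aβ and for SKF+Aβ+CSP-TTK21 against SKF it was 1 higher and 2 lower each, beside 22.8% and 19.6% of all genes. The comparisons against SKF share its libraries. In SKF+Aβ+CSP-TTK21 against CSP-TTK21, excitatory neuron markers summed 3201 to 3455 CPM against 2843 to 3193, and dentate granule markers 385 to 417 against 334 to 345.5. CA3 markers summed 292.5 to 298 against 234 to 267 CPM, and interneuron markers 451 to 456 against 376 to 422. Endothelial markers (2 of 4 detected) were lower, at 42.3 to 45.0 against 57.2 to 64.15 CPM. Their part was not tested. Junb was at 275 and 237 CPM for SKF against 137 and 92.6 for CSP-TTK21, a log2 fold change of -1.16 (adjusted p = 0.633 in edgeR's test). Fos was at 489 and 599 CPM for SKF against 288 and 200 for CSP-TTK21, also -1.16 (adjusted p = 0.633). Bdnf was at 158 and 85.3 CPM against 90.6 and 52.1 in the same libraries. Oligodendrocyte markers summed 14180 to 21410 CPM in SKF and 13250 to 13450 in CSP-TTK21, and CA3 markers 268 to 300.5 and 234 to 267. Interneuron markers were higher in CSP-TTK21, at 349 to 356 CPM in SKF and 376 to 422 in CSP-TTK21. Meningeal markers (3 of 4 detected) were also higher, at 9.54 to 12.7 and 12.8 to 15.1 CPM in the same order. The part of these cells was not tested.

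Within groups the replicate with more Bdnf also tended to hold more of these transcripts. Npas4, an early factor induced by calcium entry, was at 135 and 43.6 CPM for SKF, 29.1 and 99.4 for SKF+Aβ, 25.1 and 80.9 for SKF+Aβ+CSP, 25.8 and 78.3 for SKF+Aβ+CSP-TTK21, and 59.1 and 12.7 for CSP-TTK21. In all 5 groups the library with more Bdnf had more Npas4. The same was found in all 5 groups for Arc, Junb, Egr2 and Egr4, making 5 of the 15 genes, against 485 of 15031 other tested genes (3.23%). In at least 4 of the 5 groups it was found for 13 of 15, against 18.9% of all genes. Over the 10 libraries Bdnf and Npas4 had a Pearson r of 0.915 and a Spearman rank correlation of 0.939, and r was 0.801 without SKF replicate 1 and CSP-TTK21 replicate 2, the libraries farthest from the median of Bdnf on the log2 scale. The median r of the 15 genes with Bdnf was 0.751, from -0.042 for Nrn1 to 0.915 for Npas4, beside -0.02 for all other genes. These genes share the libraries and their depth, and the list was chosen with earlier results known, so the values are a description.

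**Figure D4:**
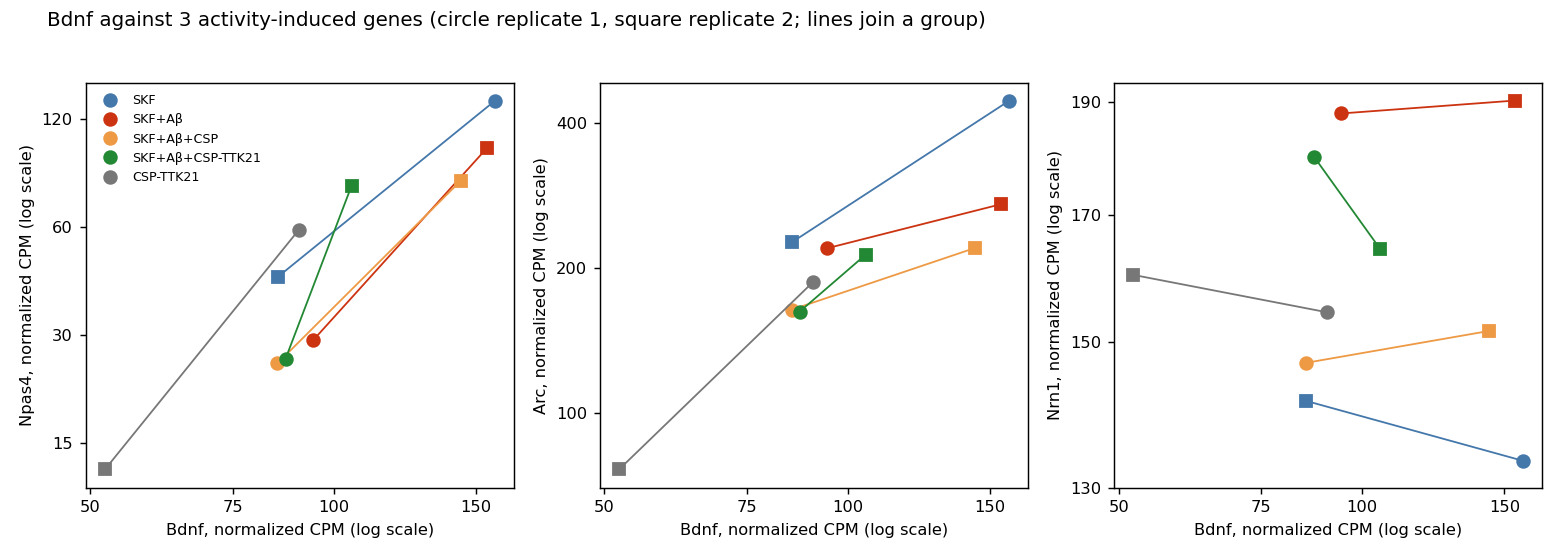
Normalized CPM of Npas4, Arc and Nrn1 (y axes, log scale) against that of Bdnf (x axis, log scale) in 10 libraries; circles are replicate 1, squares replicate 2, and a line joins the 2 libraries of a group. The line rises with Bdnf in all 5 groups for Npas4 and Arc, and Nrn1 has no such relation (r = -0.042 over the 10 libraries).

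Each tested gene was also set beside the genes most like it over the 10 libraries, on log2 normalized CPM. Bdnf was most like Lonrf1 (r = 0.928), Dph1 (0.925) and Npas4 (0.915), and Ntf3 most like Erlin2 (0.967), Ndufs5 (0.959) and Ngly1 (0.958). Ntrk2 was most like Glud1, a glutamate dehydrogenase (0.995), Ctss (0.971) and Suclg2 (0.968), and Ntrk3 most like Nedd4l (0.949), F2rl2 (0.944) and Uimc1 (0.937). Ngfr was most like Sowahb (0.940), Adamts8 (0.904) and Pick1 (0.895), and Sort1 most like Tmem50a (0.957), Cap1 (0.943) and Tmem19 (0.920). These are the highest values among 15031 genes over 10 points and are given without a test.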

How the data were processed

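Ribosome-depleted, stranded RNA-seq was done on 10 CA1 libraries. The authors deposited raw read counts per gene for all libraries in 1 table. Their methods name trimming, removal of duplicate reads, an indexed rat genome (Rnor_6.0) and alignment by TopHat2 to a mouse assembly (mm10), with transcripts quantified by Cufflinks and merged by Cuffmerge, while the submitters' processing notes list STAR, RSEM, HISAT2, Salmon and GRCh38 without a role. Which of these made the deposited counts, with what annotation and strand setting, is not given in the sources used here, so reads of overlapping antisense transcripts cannot be told apart.

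Here, counts were fitted in 1 model of 5 groups with edgeR 4.0.16 (R 4.3.3; TMM factors 0.958 to 1.03, filterByExpr by group, common coefficient of variation 0.136), keeping 15032 of 32545 genes. The quasi-likelihood test was adjusted over these genes (Benjamini-Hochberg, threshold 0.05), and log2 CPM used a prior count of 2. SEs were taken from the fold change and its F value, and intervals are at 95%. DESeq2 1.42.0 and limma 3.58.1, other factors and filters, a replicate block and fits without each library were alternatives. The code was also run on simulated data with 1 common spread and larger changes than those of the genes here. That run checks the code and does not bear on these genes.

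The genes and lists were chosen with earlier results of these data known. All 8 genes were to be named. Fold changes are printed for those with an unadjusted p under 0.05, beside intervals for Bdnf, Ntf3 and Ntrk2 chosen after their values were seen. From each list, up to 4 called genes or the 2 with the lowest p over the groups are named, and Npas4, Arc and Nrn1 were added after their values were seen. Transcript lengths were not used, so levels are not compared between genes. Sequences are from RefSeq (GRCr8), matched by symbol in the promoter table used here, and promoters of Ntrk2, Ntrk3 and Ngfr were not analysed. Bex3 was matched by its older symbol Ngfrap1. Results for some other genes of the lists are not reported here.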

Additional observations from a re-analysis of the deposited data

How the results depend on the processing

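Of 160 counts of called genes among the 7 analysed over the alternatives, 157 were 0, as in the report. The genes tested depended on the filter: without one Ntf4 entered, and a minimum of 10 counts in every library left out Ngfr. The exceptions were a count of 1 in SKF+Aβ against SKF with DESeq2 (Ntrk3, adjusted p = 0.0428; 822 genes called in all against 312), 1 in CSP-TTK21 against SKF without a filter on low counts (Bdnf, log2 fold change -0.79, adjusted p = 8.34e-04 in edgeR's test; 157 genes in all against 0), and 1 for any difference among the groups without that filter (1401 genes in all against 1). The cause was not tested. All 85 alternative fold changes of the 5 differences with an unadjusted p under 0.05 kept their direction, and 2 had an adjusted p under 0.05. Leaving out 1 library at a time gave a log2 fold change from 0.29 to 0.58 for Ntrk3 in SKF+Aβ against SKF and from 0.71 to 1.21 for Ntf3 in SKF+Aβ+CSP-TTK21 against SKF. It gave -1.24 to -0.26 for Bdnf in CSP-TTK21 against SKF, -0.47 to -0.17 for Ntrk3 in SKF+Aβ+CSP-TTK21 against SKF+Aβ, and 0.54 to 1.11 for Ntf3 against SKF+Aβ+CSP.

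With the replicate number as a replicate block, 0 of the 6 genes passed, and the 5 fold changes were 0.46 (Ntrk3, adjusted p = 0.0792), 0.97 (Ntf3, 0.134), -0.77 (Bdnf, 0.549), -0.33 (Ntrk3, 0.649) and 0.83 (Ntf3, 0.440) in edgeR's test. Deviations of same-numbered libraries correlated between -0.0691 and 0.237, and each comparison holds 2 pairs, so the numbers were not taken as a pairing. Reads limit Ntf4 (0 to 3), Ngfr (6 to 22) and Ntf3 (20 to 51).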

Other observations

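Ntrk2 and Ntrk3, the genes of TrkB and TrkC, were inversely related over the 10 libraries, with a Pearson r of -0.593 on log2 normalized CPM. Over the pairs of tested genes, r ranged from -0.642 for Ntf3 with Ngfr to 0.575 for Ntf3 with Sort1. Ntrk2 had an r of 0.859 with the summed markers of microglia (4 of 4 detected, 69.0 to 127.5 CPM over the libraries), and Ngfr had an r of -0.817 with those of astrocytes (4 of 4, 2100 to 2988 CPM). Sort1 had an r of -0.768 with the endothelial markers. These values share the libraries, and the part of these cells was not tested.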
